A study of Mus musculus with 17 samples.

Results

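Adgre1, Itgam, Csf1r, Cx3cr1, Folr2, Mertk, Cd14 and Cd68 are surface and lysosomal genes by which mouse monocytes and interstitial macrophages are recognised, and their mRNA was measured in whole lung. The 8 genes were chosen by name, with earlier results of these data known, from the 19751 genes with a probe set of 1 gene symbol. Each had 1 such probe set. Because of that choice, their counts beside those of all genes are descriptions and not tests. Lungs of 17 Balb/c mice were each hybridised to 1 Affymetrix Mouse Gene 1.0 ST array, a chip with probes along the transcripts of most mouse genes. The 6 anti-RGMb mice were sensitized and challenged with OVA (ovalbumin) and treated with the aRGMB monoclonal antibody, directed at RGMb, a membrane-anchored protein that binds neogenin and bone morphogenetic proteins. The 5 isotype mice had the same OVA exposure with an isotype antibody, and the 6 saline mice had saline at both steps, with no antibody named in the labels. All lungs were taken at the same time point, in 2 replicate sets with 3 mice a group except for 2 isotype mice in set 2, and the labels state no age for the mice. No group had anti-RGMb without OVA. Mice of set 2 are called 1-2, 2-2 and 3-2. Which mice form which set was read from a suffix of the mouse numbers in the titles, whose counts match the series' design text but which the labels do not explain.

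Monocytes arise in bone marrow under the receptor encoded by Csf1r and enter the lung from blood, where classical monocytes use the chemokine receptor CCR2 and non-classical ones patrol the vessel wall with high CX3CR1. Interstitial macrophages live around bronchi and vessels, take up dying cells and debris, and carry CD68, MERTK, CD14 and, in some subsets, FOLR2, the folate receptor of resident tissue macrophages. Several of these genes are shared with other cells. The product of Adgre1, the classic macrophage surface antigen of the mouse, and CD11b, encoded by Itgam, also mark mouse eosinophils, and CD11b marks neutrophils and natural killer cells too. Arrays of whole lung measure the sum over all cells, so that fewer cells of a type and less RNA per cell cannot be told apart in any result below.

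Of the 8 genes, 5 were lower in anti-RGMb than in isotype mice and none was higher. In order of size they were Folr2 (-0.73), Csf1r (-0.65), Cd14 (-0.55), Cd68 (-0.54) and Adgre1 (-0.41), in log2 units. Of all genes tested, 10.0% were lower and 11.1% higher in anti-RGMb than in isotype mice at an adjusted p under 0.05 (limma with Benjamini-Hochberg adjustment), and the median difference was -0.48 over the 8 genes and 0.03 over all genes. Itgam, Mertk and Cx3cr1 did not pass. OVA with isotype antibody raised 6 of the 8 genes over saline, all but Cx3cr1 and Mertk, with a median over the 8 of 1.40 against -0.04 over all genes. The background in that comparison was 14.6% higher and 21.0% lower. The same 6 genes were also higher in anti-RGMb than in saline mice, where 4.26% of all genes were higher and 2.24% lower, with a median of 0.81 over the 8. These 3 comparisons share arrays, so their values are given side by side and not as separate evidence. Csf1r, Folr2, Adgre1 and Cd68 did not overlap between anti-RGMb and isotype mice, and 5.12% of all genes were likewise without overlap and lower. The 6 raised genes overlapped neither between isotype and saline mice (background 10.6%) nor between anti-RGMb and saline mice (background 4.18%). None of the 8 genes had differences between the replicate sets that passed, which 0.471% of all genes had for anti-RGMb minus isotype, 0.668% for isotype minus saline and 0% for anti-RGMb minus saline.

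Within an replicate set, log2 profiles of any pair of arrays correlated at 0.968 or more over all genes. All 10 listed genes of lung epithelium and endothelium were above the arrays' lower quartile in at least 1 saline mouse. A standard error, where given after ±, is in log2 units.

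**Figure D1:**
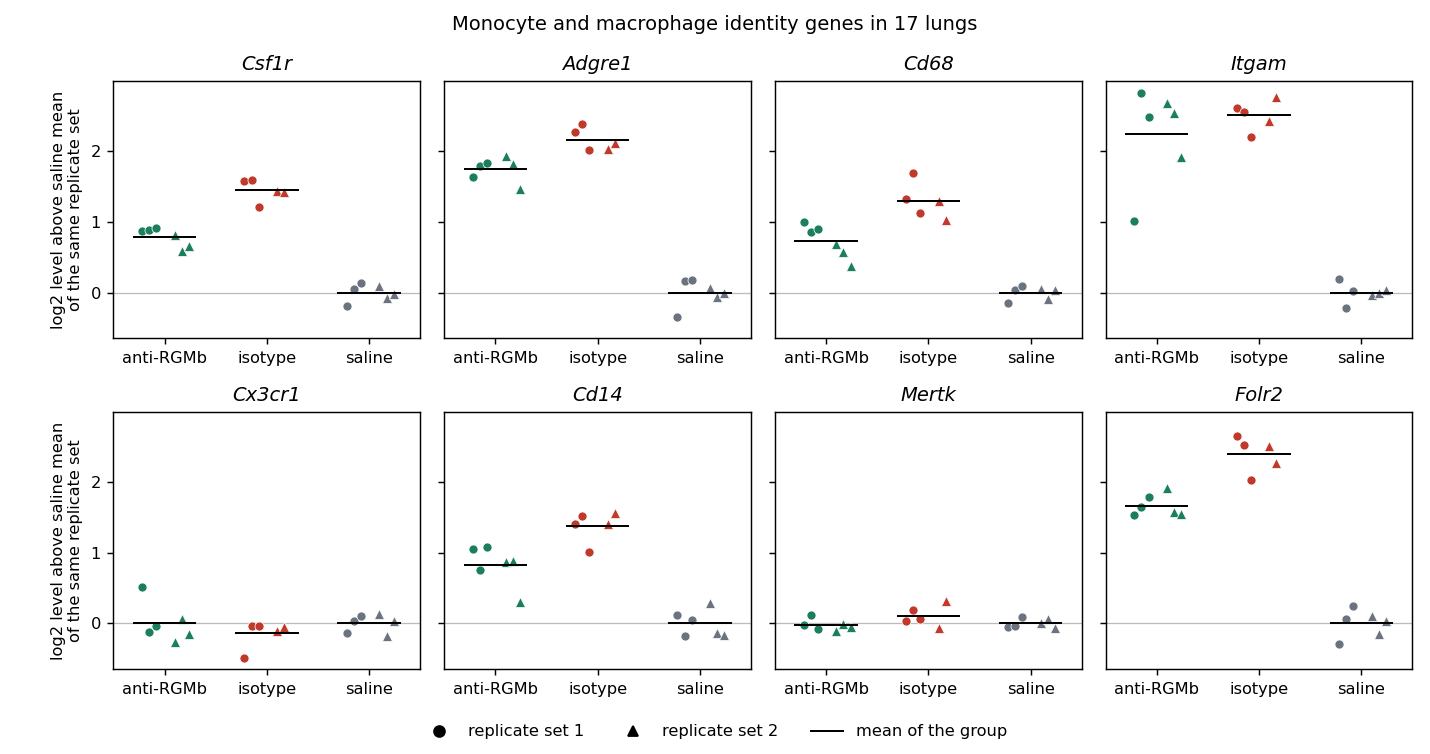
Each point is 1 lung, with its log2 level above the saline mean of the same replicate set on the vertical axis, circles for replicate set 1, triangles for replicate set 2 and a line at the group mean. In Csf1r, Folr2, Adgre1 and Cd68 the anti-RGMb lungs lie between the isotype and saline lungs without overlap, while Cx3cr1 and Mertk overlap in all groups.

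Promoter sequence is shown for 5 of the 8 genes, 3 that were higher in isotype than in saline mice and 2 that did not pass, because PU.1, the product of Spi1, and C/EBP factors are known to drive many genes of this lineage. RefSeq sequences on GRCm38.p6 were searched over the 250 bases before the start on both strands, for GAGGAA, the core that PU.1 binds, and TTGCNNAA, a C/EBP form. The letters of any match are in capitals. The stretches are chr11:69666171-69666420 (minus strand) for Cd68, chr7:128062390-128062639 (plus) for Itgam, chr7:101857191-101857440 (minus) for Folr2, chr9:120068297-120068546 (minus) for Cx3cr1 and chr2:128698665-128698914 (plus) for Mertk.
Cd68: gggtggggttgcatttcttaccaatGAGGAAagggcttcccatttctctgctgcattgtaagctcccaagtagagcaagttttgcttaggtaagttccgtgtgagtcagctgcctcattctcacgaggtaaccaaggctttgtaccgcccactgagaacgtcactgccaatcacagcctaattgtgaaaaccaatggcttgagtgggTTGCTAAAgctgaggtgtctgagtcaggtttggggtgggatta
Itgam: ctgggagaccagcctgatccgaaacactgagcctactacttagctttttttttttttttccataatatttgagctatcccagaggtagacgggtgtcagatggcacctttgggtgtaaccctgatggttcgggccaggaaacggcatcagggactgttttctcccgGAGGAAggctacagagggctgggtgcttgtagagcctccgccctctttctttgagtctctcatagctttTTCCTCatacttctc
Folr2: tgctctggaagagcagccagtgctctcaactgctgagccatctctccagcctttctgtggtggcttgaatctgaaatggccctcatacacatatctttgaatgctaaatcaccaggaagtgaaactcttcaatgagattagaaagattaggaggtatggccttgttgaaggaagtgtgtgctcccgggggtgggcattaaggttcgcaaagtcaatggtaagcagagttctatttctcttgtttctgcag
Cx3cr1: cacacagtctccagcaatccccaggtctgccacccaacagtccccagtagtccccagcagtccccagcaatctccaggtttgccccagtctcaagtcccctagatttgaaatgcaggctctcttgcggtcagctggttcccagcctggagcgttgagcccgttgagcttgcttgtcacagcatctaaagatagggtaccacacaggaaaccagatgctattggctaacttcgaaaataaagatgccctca
Mertk: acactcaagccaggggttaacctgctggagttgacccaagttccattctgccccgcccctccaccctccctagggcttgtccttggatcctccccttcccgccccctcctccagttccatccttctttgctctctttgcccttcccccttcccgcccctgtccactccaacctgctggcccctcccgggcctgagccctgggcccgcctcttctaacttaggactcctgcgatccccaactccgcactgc
GAGGAA stood in the promoters of Cd68, in 1 copy, and Itgam, in 2 copies of which 1 is read as its complement, and TTGCNNAA in that of Cd68. Cx3cr1, Mertk and the Folr2 promoter shown, 1 of its 2 in RefSeq, held neither string in this window, nor did the other one. GAGGAA occurs in 23.3% and TTGCNNAA in 9.56% of 32851 promoters of the same length.

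Csf1r encodes the receptor for colony-stimulating factor 1 and interleukin 34, on which most macrophages depend. The Csf1r level above the saline mean was lowest 0.59, median 0.84 and highest 0.91 log2 units in the 6 anti-RGMb mice. In isotype mice it was 1.57, 1.59 and 1.21 in replicate set 1 and 1.44 and 1.42 in replicate set 2. Saline mice lay between -0.19 and 0.14 with a median of 0.02. The 3 groups did not overlap, and the anti-RGMb mice were the most alike of any raised gene in replicate set 1, at 0.87, 0.89 and 0.91. Anti-RGMb mice were lower than isotype mice by 0.65 log2 units, a difference of -0.65 ± 0.08 (SE, adjusted p = 2.0e-05), or 1.57-fold. The difference was -0.57 in replicate set 1 and -0.74 in replicate set 2, and both passed. Isotype mice were 1.44 ± 0.08 above saline (adjusted p = 3.0e-10), or 2.70-fold.

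Of the receptor's ligands, Csf1 was lower in anti-RGMb than in isotype mice (-0.29 ± 0.09, adjusted p = 0.0292) and higher in isotype than in saline mice (0.48 ± 0.09, adjusted p = 4.3e-04). Il34, the other ligand, differed by -0.05 ± 0.06 (adjusted p = 0.618) and 0.07 ± 0.06 (adjusted p = 0.399) in those comparisons. Tyrobp, the adaptor DAP12 that signals for many myeloid receptors, was lower with the antibody (-0.43 ± 0.07, adjusted p = 5.0e-04).

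Folr2 encodes folate receptor beta. Among the 8 genes it had the largest difference between anti-RGMb and isotype mice. In anti-RGMb mice Folr2 was at lowest 1.53, median 1.61 and highest 1.91 log2 units above saline. The isotype mice stood at 2.65, 2.52 and 2.02 in replicate set 1 and at 2.51 and 2.27 in replicate set 2, and the saline mice between -0.29 and 0.24. Again no group overlapped another, and isotype mouse 3, at 2.02, was the isotype mouse nearest to the anti-RGMb group. The antibody difference was -0.73 ± 0.11 (adjusted p = 1.8e-04), or 1.66-fold lower, with -0.74 in replicate set 1 and -0.72 in replicate set 2. The difference between isotype and saline mice was 2.40 ± 0.11 (adjusted p = 6.4e-11), or 5.26-fold. Folr1, which encodes folate receptor alpha of epithelium, differed by 0.10 ± 0.08 (adjusted p = 0.432) with the antibody and by -0.03 ± 0.08 (adjusted p = 0.836) between isotype and saline mice. Its probe set was below the arrays' lower quartile in every mouse of replicate set 1 and below their median in every mouse. A change in so dim a probe set could go unseen.

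Adgre1 encodes an adhesion receptor of the G protein-coupled class, long used to stain mouse macrophages. Its level above saline was lowest 1.46, median 1.80 and highest 1.93 log2 units in anti-RGMb mice. It was 2.27, 2.38 and 2.01 in isotype mice of replicate set 1 and 2.02 and 2.11 in those of replicate set 2, against -0.35 to 0.18 in saline mice. The groups did not overlap, though anti-RGMb mouse 1-2 (1.93) came close to isotype mouse 3 (2.01). Adgre1 was lower with the antibody by 0.41 log2 units (-0.41 ± 0.10, adjusted p = 0.00693), or 1.33-fold. Within the replicate sets the differences were -0.47 (adjusted p = 0.0617) and -0.33 (adjusted p = 0.17), so that neither passed alone. Isotype mice were 2.15 ± 0.10 above saline mice. Most listed markers of eosinophils and of interstitial macrophages were also lower with the antibody, as given with the lists below. Their part in the Adgre1 difference was not tested.

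Cd68 encodes macrosialin, a glycoprotein of the lysosomes of phagocytes. Anti-RGMb mice were at lowest 0.38, median 0.76 and highest 0.99 log2 units above saline. Isotype mice were at 1.32, 1.69 and 1.13 in replicate set 1 and at 1.29 and 1.02 in replicate set 2, and saline mice at -0.14 to 0.10. The gap between the groups was narrow, since anti-RGMb mouse 1 (0.99) and isotype mouse 2-2 (1.02) nearly met, but they belonged to different replicate sets. Cd68 was 1.46-fold lower in anti-RGMb than in isotype mice (-0.54 ± 0.10, adjusted p = 7.2e-04) and 2.41-fold higher in isotype than in saline mice (1.27 ± 0.10, adjusted p = 2.1e-08). The antibody difference passed within replicate set 1 (-0.47, adjusted p = 0.0351) and within replicate set 2 (-0.61, adjusted p = 0.00486).

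Cd14 encodes a co-receptor that hands bacterial lipopolysaccharide to the receptor TLR4 and its partner MD-2. The Cd14 level was lowest 0.31, median 0.88 and highest 1.08 log2 units above saline in anti-RGMb mice. Isotype mice had 1.41, 1.51 and 1.01 in replicate set 1 and 1.40 and 1.56 in replicate set 2, and saline mice ranged over -0.17 to 0.29. Isotype mouse 3 (1.01) lay below anti-RGMb mice 1 (1.05) and 3 (1.08), so the antibody groups overlapped in replicate set 1 but not in replicate set 2. The antibody difference was -0.55 ± 0.13 (adjusted p = 0.00526), with -0.35 (adjusted p = 0.295) in replicate set 1 and -0.79 (adjusted p = 0.00681) in replicate set 2. The difference between these values, -0.44 ± 0.25, did not pass (interaction adjusted p = 0.53). Isotype mice exceeded saline mice by 1.37 ± 0.13 (adjusted p = 2.2e-07), or 2.59-fold.

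The partners of CD14 were lower too. Tlr4 differed by -0.42 ± 0.09 (adjusted p = 0.00248) and Ly96, which encodes MD-2, by -0.63 ± 0.10 (adjusted p = 2.2e-04) between anti-RGMb and isotype mice. Both were higher in isotype than in saline mice, by 0.65 ± 0.09 and 1.03 ± 0.10. Lbp, the serum protein that loads CD14, was at -0.01 ± 0.07 (adjusted p = 0.965) and 0.07 ± 0.07 (adjusted p = 0.469) in those comparisons.

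**Figure D2:**
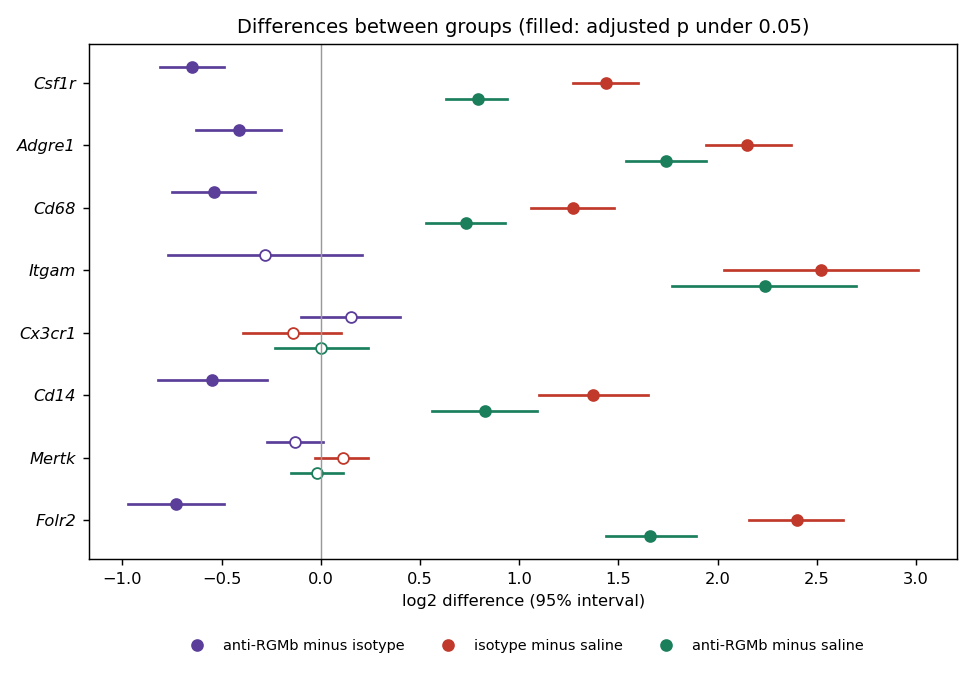
Points are log2 differences of the 8 genes with 95% intervals in 3 comparisons, filled where the adjusted p was under 0.05. The antibody difference is below 0 and filled in 5 genes, and the interval of Itgam, -0.77 to 0.21, is the widest.

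Itgam encodes the alpha chain of complement receptor 3 (CD11b), which lets monocytes and granulocytes adhere and take up opsonised particles. Among the 8 genes Itgam had the highest point estimate over saline, and its antibody difference did not pass. In replicate set 1 the anti-RGMb mice were at 1.01, 2.82 and 2.48 log2 units above saline and in replicate set 2 at 2.67, 2.53 and 1.91. Isotype mice were at 2.60, 2.55 and 2.19 and at 2.42 and 2.76, and saline mice between -0.22 and 0.19. Anti-RGMb mouse 1 was the lowest of its group, followed by mouse 3-2, while both antibody groups overlapped and lay wholly above saline. The antibody difference was -0.28 ± 0.23 (adjusted p = 0.448, 95% interval -0.77 to 0.21), and it passed in 0 of 17 fits that each left out 1 mouse. In these it ran from -0.43 without anti-RGMb mouse 2 (adjusted p = 0.218) to -0.01 without anti-RGMb mouse 1 (adjusted p = 0.961). Itgam was 2.52 ± 0.23 higher in isotype than in saline mice (adjusted p = 1.6e-07) and 2.24 ± 0.22 higher in anti-RGMb than in saline mice (adjusted p = 3.1e-06).

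Anti-RGMb mouse 1 was the lowest of the 6 anti-RGMb mice in 8 of 9 eosinophil markers, all but Siglecf, and in 10 of 11 neutrophil markers, all but Ltf. Of 15 interstitial macrophage markers it was lowest in 5 and highest in 5. Other lists went the other way. This mouse was highest in 6 of 10 dendritic cell and 5 of 7 natural killer cell markers, and lowest in 0 of both. Of 8 classical monocyte markers it was highest in 3 and lowest in 1, and their mean, 0.97, was the highest of its group. The part of any of these cells in the Itgam level was not tested. The mean of 9 eosinophil markers was 0.88 above saline in this mouse, against 1.71 to 2.21 in the other 5 anti-RGMb mice. Rnase2a weighed most in that mean, averaging 6.78 over the 6 anti-RGMb mice against 2.30 for Alox15, the next highest. The mean of 11 neutrophil markers was -0.42 in this mouse, against 0.34 to 0.77 in the others. The mean of 15 interstitial macrophage markers was 0.78, within the 0.61 to 0.82 of the others, with single genes on both sides, such as Cd163 (0.56, others 0.62 to 1.57) and Ms4a7 (2.29, others 1.21 to 1.73). Of the integrin partners, Itgb2, the common beta chain, was lower with the antibody (-0.44 ± 0.07, adjusted p = 1.6e-04), and Itgax, the alpha chain CD11c of dendritic cells and macrophages, was lower by more (-1.04 ± 0.10, adjusted p = 3.6e-06). Itgal, the alpha chain of LFA-1, differed by -0.16 ± 0.08 (adjusted p = 0.198), Itgad by 0.10 ± 0.10 (adjusted p = 0.563), and Icam1, a ligand, by 0.07 ± 0.07 (adjusted p = 0.512). Against saline, isotype mice were higher in Itgb2 (1.21 ± 0.07), Itgax (2.13 ± 0.10) and Itgal (0.41 ± 0.08).

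**Figure D3:**
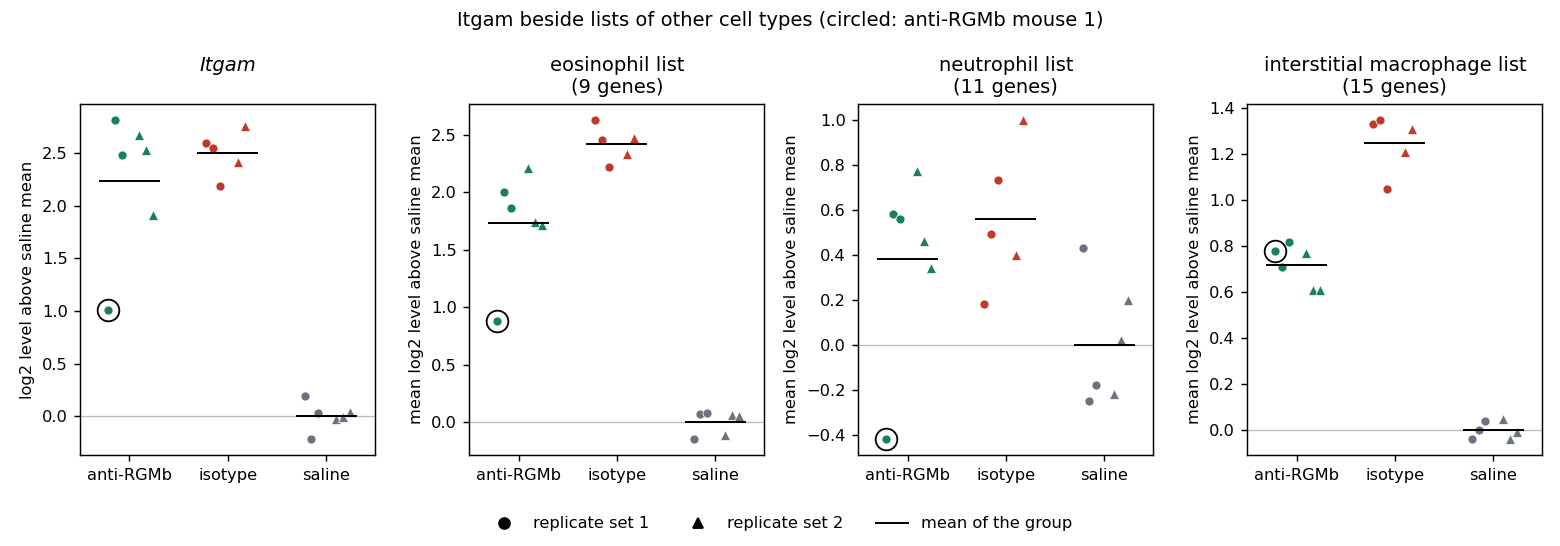
The vertical axes give the log2 level of Itgam, and the mean log2 level of 3 marker lists, above the saline mean of the same replicate set for each lung, with circles for replicate set 1 and triangles for replicate set 2. Anti-RGMb mouse 1 (ringed) is the lowest of its group in Itgam (1.01), the eosinophil list (0.88) and the neutrophil list (-0.42), and lies within its group in the interstitial macrophage list (0.78). Lists in which it had the highest mean of its group, such as that of classical monocytes (0.97), are not drawn.

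Cx3cr1 encodes the receptor for fractalkine, the membrane-bound chemokine of endothelium and epithelium. The Cx3cr1 level above saline was lowest -0.26, median -0.08 and highest 0.52 log2 units in anti-RGMb mice. Isotype mice had -0.48, -0.03 and -0.03 in replicate set 1 and -0.10 and -0.05 in replicate set 2, and saline mice -0.18 to 0.14. All groups overlapped, with anti-RGMb mouse 1 the highest and isotype mouse 1 the lowest lung. No difference passed, with 0.15 ± 0.12 (adjusted p = 0.427, 95% interval -0.10 to 0.40) for anti-RGMb minus isotype and -0.14 ± 0.12 (adjusted p = 0.399, -0.39 to 0.10) for isotype minus saline. Anti-RGMb and saline mice differed by 0.00 ± 0.11 (adjusted p = 0.991, -0.23 to 0.24). Its ligand gene Cx3cl1 did move. Cx3cl1 was higher in anti-RGMb than in isotype mice (0.63 ± 0.09, adjusted p = 6.2e-05) and lower in isotype than in saline mice (-0.93 ± 0.09, adjusted p = 1.7e-07). It was also lower in anti-RGMb than in saline mice (-0.30 ± 0.08, adjusted p = 0.036).

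Mertk encodes a receptor tyrosine kinase by which macrophages bind and engulf apoptotic cells. It varied least of the 8 genes, between -0.10 and 0.12 log2 units from saline in anti-RGMb mice, with a median of -0.03. Isotype mice were at 0.03, 0.19 and 0.07 in replicate set 1 and at -0.07 and 0.32 in replicate set 2, and saline mice at -0.07 to 0.09. The groups overlapped in each replicate set. The differences were -0.13 ± 0.07 for anti-RGMb minus isotype (adjusted p = 0.184, 95% interval -0.27 to 0.01) and 0.11 ± 0.07 for isotype minus saline (adjusted p = 0.241, -0.03 to 0.24). Of its bridging ligands, Gas6 was higher in anti-RGMb than in isotype mice (0.26 ± 0.06, adjusted p = 0.00612) and lower in isotype than in saline mice (-0.26 ± 0.06, adjusted p = 0.00373). Pros1, which encodes protein S, was at -0.04 ± 0.08 (adjusted p = 0.743) and 0.14 ± 0.08 (adjusted p = 0.187). The sister receptor genes split. Axl was higher (0.37 ± 0.09, adjusted p = 0.00427) and Tyro3 lower (-0.17 ± 0.05, adjusted p = 0.0176) in isotype than in saline mice, and with the antibody they differed by -0.10 ± 0.09 (adjusted p = 0.52) and 0.10 ± 0.05 (adjusted p = 0.193).

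**Figure D4:**
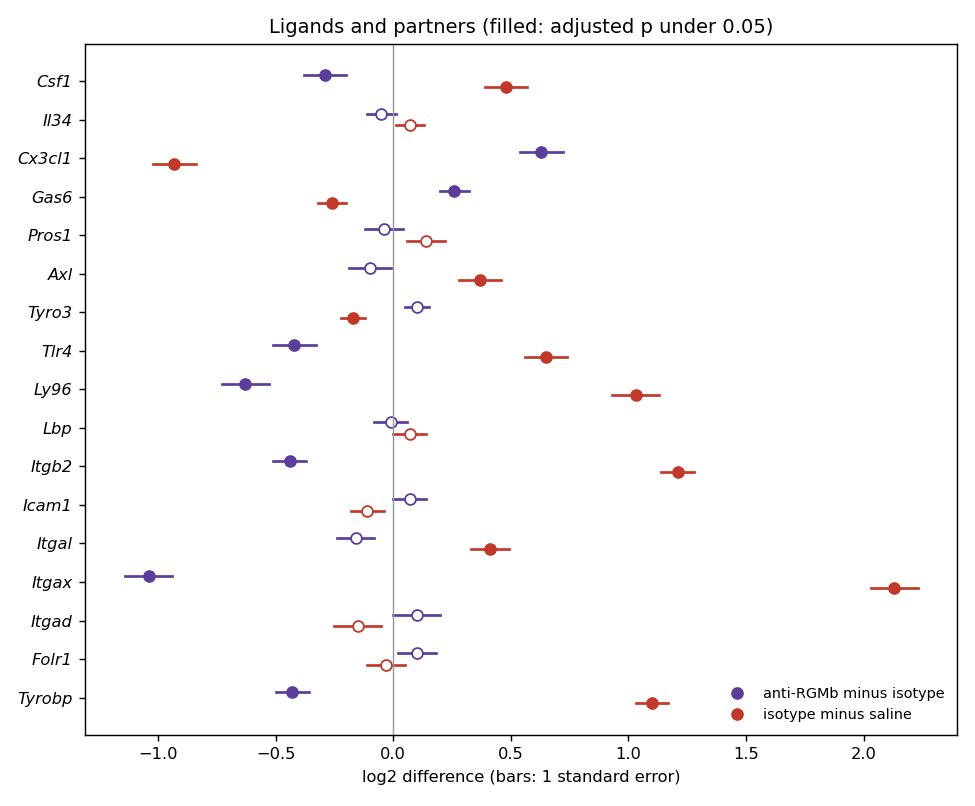
Points are log2 differences of the 17 ligands and partners of the 8 genes, with bars of 1 standard error, for anti-RGMb minus isotype and isotype minus saline, filled where the adjusted p was under 0.05. With the antibody 6 were lower, Itgax by most (-1.04), and 2 were higher, Cx3cl1 (0.63) and Gas6 (0.26).

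Set against saline, the raised genes differed in how much of their OVA-associated level anti-RGMb mice showed. The anti-RGMb difference from saline as a percentage of the isotype difference, both on the log2 scale, was 54.8% for Csf1r, 57.3% for Cd68, 60.1% for Cd14, 69.4% for Folr2, 80.9% for Adgre1 and 88.9% for Itgam. Anti-RGMb exceeded saline by 0.79 ± 0.07 in Csf1r, 0.73 ± 0.09 in Cd68, 0.83 ± 0.12 in Cd14, 1.66 ± 0.11 in Folr2 and 1.74 ± 0.10 in Adgre1. The percentages are ratios of differences that share the saline mice, and the order among the genes was not tested. Each of the 8 genes was above the lower quartile of all probe sets on every array, so none of these values rests on a dim probe set.

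The gene of PU.1, Spi1, and the C/EBP genes Cebpa and Cebpb were measured too. Of 11 myeloid transcription factor genes, 5 were lower and 2 higher in anti-RGMb than in isotype mice. Spi1 was lower with the antibody (-0.60 ± 0.09, adjusted p = 1.9e-04) and higher in isotype than in saline mice (1.22 ± 0.09, adjusted p = 1.6e-08). Egr2, an early response factor of activated macrophages, fell most with the antibody (-1.15 ± 0.10, adjusted p = 1.7e-06), and Maf (-0.37 ± 0.06) and Cebpa (-0.19 ± 0.06, adjusted p = 0.033) were lower as well, as was Zeb2 (-0.15 ± 0.05, adjusted p = 0.0379). Cebpb, the other C/EBP gene listed, differed by -0.04 ± 0.07 (adjusted p = 0.699) with the antibody and was higher in isotype than in saline mice (0.30 ± 0.07, adjusted p = 0.0015). The 2 that were higher are Klf4 (0.35 ± 0.07, adjusted p = 0.00274), needed for monocyte differentiation, and Nr4a1 (0.78 ± 0.22, adjusted p = 0.0141), on which non-classical monocytes depend. Both were lower in isotype than in saline mice, by -0.25 ± 0.07 and -1.03 ± 0.22.

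Lists of further monocyte and macrophage markers place the 8 genes among their neighbours. Of 15 interstitial macrophage markers, 10 were lower and 2 higher with the antibody (median -0.58), and 10 were higher and 2 lower in isotype than in saline mice (median 0.73). The scavenger receptor gene Cd163 (-2.02 ± 0.20), the mannose receptor gene Mrc1 (-0.96 ± 0.10) and the complement gene C1qa (-0.83 ± 0.09) had the smallest p among those lower, and Tmem119 (0.50 ± 0.06) and Gas6 were the genes that were higher. Of 8 classical monocyte markers, 3 were lower with the antibody and 5 did not pass (median -0.37). Those lower were Ccr2 (-0.86 ± 0.12, adjusted p = 1.0e-04), Vcan (-1.23 ± 0.19) and Ccr1 (-0.99 ± 0.16), and 7 of the 8 were higher in isotype than in saline mice.

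Of 10 markers of non-classical monocytes, the cells known for high CX3CR1, 4 were higher with the antibody and none lower (median 0.17), namely Treml4 (0.63 ± 0.10, adjusted p = 1.7e-04), Cd300e (0.45 ± 0.09, adjusted p = 0.00203), Ace (0.26 ± 0.06, adjusted p = 0.00782) and Nr4a1. In isotype against saline mice 4 were lower, the same 4 genes, and 4 higher, which were Adgre4 (0.88 ± 0.13), Itgal, Spn (0.38 ± 0.08) and Pou2f2 (0.23 ± 0.08). Ace and Nr4a1 are also made by endothelium and many other cells.

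Some markers of other cells moved beside the 8 genes, and their part in the results was not tested. Of 9 eosinophil markers, 6 were lower with the antibody (median -0.54) and 8 higher in isotype than in saline mice (median 1.77). Their mean ranged over 0.88 to 2.21 log2 units above saline in anti-RGMb mice and 2.22 to 2.63 in isotype mice, against -0.15 to 0.08 in saline mice. Those lower with the smallest p were the peroxidase gene Epx (-1.14 ± 0.19), Alox15 (-1.22 ± 0.21), Ccr3 (-0.84 ± 0.18) and Siglecf (-0.47 ± 0.11). Epx, Il5ra and Rnase2a were below the arrays' lower quartile in all saline mice. Rnase2a weighed most in the list mean, at 8.10 ± 0.41 in isotype minus saline against 3.53 ± 0.21 for Alox15, the next highest.

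Of 11 neutrophil markers, 3 were lower with the antibody, Retnlg (-0.72 ± 0.20), Mmp8 (-0.53 ± 0.14) and Csf3r (-0.56 ± 0.17), and 8 did not pass. Their mean was -0.42 to 0.77 in anti-RGMb, 0.18 to 1.00 in isotype and -0.25 to 0.43 in saline mice. Of all genes tested, 10.0% were lower and 11.1% higher with the antibody, so a count of 1 or 2 in lists this short is near the background. Of 11 alveolar macrophage markers, 2 were lower, Atp6v0d2 (-0.75 ± 0.12) and Siglecf, and 1 was higher, Cidec (0.70 ± 0.15). Of 10 dendritic cell markers, Batf3 (-0.45 ± 0.09) and Siglech (-0.50 ± 0.15) were lower, and 0 of 7 natural killer cell markers passed. Of these 7, 2 were below the arrays' lower quartile in all saline mice, so a change in them could go unseen. Of 10 genes of lung epithelium and endothelium, 7 were higher with the antibody (median 0.26), among them Tek (0.57 ± 0.08) and Kdr (0.53 ± 0.07), and 8 were lower in isotype than in saline mice (median -0.35). The mean of these 10 was -0.17 to -0.06 in anti-RGMb, -0.51 to -0.25 in isotype and -0.05 to 0.06 in saline mice.

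**Figure D5:**
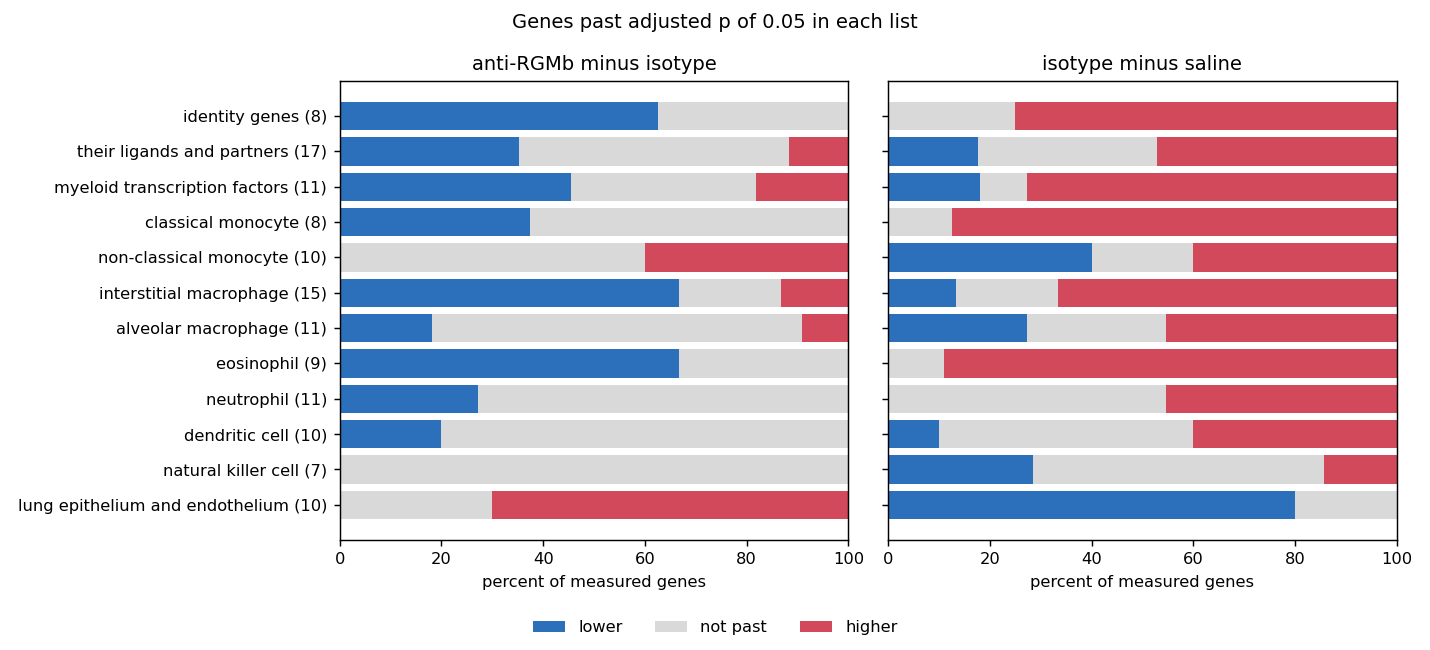
Bars give the percent of measured genes of each list, with their number in brackets, that were lower, not past the threshold or higher in anti-RGMb minus isotype (left) and isotype minus saline (right). On the left the 8 identity genes have 5 lower and 3 not past, the interstitial macrophage list has 10 lower of 15, the eosinophil list 6 lower of 9, and the non-classical monocyte list has 4 higher and 0 lower. Of all genes tested, 10.0% were lower and 11.1% higher on the left, and 21.0% lower and 14.6% higher on the right.

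The genes with the most similar course over the 17 arrays were found by the root mean square difference between log2 profiles, each centred on its mean in each replicate set. For Folr2 they were the complement genes C1qa (0.09 log2 units), C1qb (0.17) and C1qc (0.19), while the profile of Folr2 itself varied by 1.01. For Csf1r they were Nckap1l (0.07), a regulator of the actin skeleton in blood cells, Ifi30 (0.10), a lysosomal reductase, and Ptgir (0.10), the prostacyclin receptor. Cd68 lay nearest Ifi30 (0.09), Tifab (0.11) and Csf2ra (0.11), and Cd14 nearest Cd83 (0.14), Spi1 (0.15) and Samsn1 (0.15). Adgre1 lay nearest Cfp (0.17), which encodes properdin, C1qb (0.18) and Mgl2 (0.18), with Folr2 at 0.18.

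The nearest genes to Itgam were farther off. They were Ccr3 (0.37), a gene of the eosinophil list, and Mgl2 (0.37) and Cfp (0.42), which were also among the nearest to Adgre1. The profile of Itgam itself varied by 1.20. Cx3cr1 lay nearest Ifi35 (0.09), Tbc1d25 (0.10) and Samd9l (0.10) and Mertk nearest Phf23 (0.05), Det1 (0.06) and Plin3 (0.06), but these profiles varied by 0.20 and 0.11 only, so small differences there mark flat courses. These distances are descriptions over arrays that share the group differences.

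The mice of a group were not ordered alike in every gene. Among isotype mice of replicate set 1, mouse 2 was highest in 6 of the 8 genes and mouse 3 lowest in 6. Among anti-RGMb mice of replicate set 2, mouse 1-2 was highest in 5 and mouse 3-2 lowest in 5. Saline mouse 1 was lowest in 6 of the 8 genes in replicate set 1, and Itgam and Cd14 were the genes in which it was highest.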

How the data were processed

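Lung RNA of 17 mice was measured on 17 arrays, with 6 anti-RGMb, 5 isotype and 6 saline mice. The authors deposited intensity on a linear scale, 1 value per probe set. It was made with RMA, per the submitters' processing notes, with a version not given in the sources used. Array medians were 120 to 125 in replicate set 1 and 362 to 386 in replicate set 2, so the replicate set, taken from the mouse numbers in the titles, was a fixed term. Here log2 was taken with no added constant. Of 24679 probe sets, the 21354 with 1 symbol were used, and of several the brightest was kept, which left 19751 genes. limma 3.58.1 in R 4.3.3 fitted group means, with eBayes, 2-sided tests and Benjamini-Hochberg adjustment over all genes of a comparison. Values after ± are standard errors. Within-set values and interactions come from a fit of all 17 arrays with a mean for each group in each replicate set. Its spread is shared by both sets, so its adjusted p can differ from that of a set fitted alone. In simulated isotype minus saline data on 19751 genes, 200 genes were changed and the noise was normal and independent. Of changes of 0.5 log2 units 90% were recovered, and of changes of 1 log2 unit 99%, and 18 of 198 and 21 of 219 calls were false. In the real comparison 2878 genes were called higher and 4156 lower, so these shares may not carry over.

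Labels give animals as separate mice, and the number of arrays limits precision. Same-numbered mice of different groups had residual correlations of -0.60 to 0.30, above 0.1 in 3 of 16 pairs, so mice were treated as unpaired. The 8 genes, the 11 other lists and the motifs were chosen with earlier results of these data known. Named genes were the 8, their ligands and partners, up to 4 of each other list with the smallest adjusted p for the antibody and those opposite to the list median, and the 3 nearest profiles of each of the 8. Cebpa, Cebpb, Zeb2, Adgre4, Spn, Pou2f2 and Rnase2a fall outside that rule, as do the values of Cd163, Ms4a7, Siglecf and Ltf in 1 mouse. They were named after their values were seen. Of the listed genes, 6 had no probe set of 1 symbol and are not analysed here. Lists share 6 genes. Alternatives were other normalization, an added constant, a dim filter, other probe set choices, other model terms, array weights and leaving out each mouse, and, chosen after seeing the data, each replicate set alone.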

Additional observations from a re-analysis of the deposited data

Results flagged for a closer look

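In 2 of the 24 combinations of gene and group, 1 mouse lay far from the rest of its group, where chance alone gives about 1 in 20. The Cx3cr1 level of isotype mouse 1 was -0.48 log2 units from saline, against -0.10 to -0.03 in the other 4 isotype mice. Without this mouse the Cx3cr1 difference was 0.06 for anti-RGMb minus isotype (adjusted p = 0.765) and -0.05 for isotype minus saline (adjusted p = 0.772). The Cd14 level of isotype mouse 3 was 1.01, against 1.40 to 1.56 in the others. Without it Cd14 was lower with the antibody by 0.64 log2 units (-0.64, adjusted p = 9.9e-04) and higher in isotype than in saline mice by 1.47 (adjusted p = 7.2e-08).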

How the results depend on the processing

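All calls of the 8 genes were kept under quantile normalization within each replicate set, log2(value + 50), leaving out the dimmest 40% of genes, the mean of all probe sets, only the arrays of the groups compared, array weights and each of 17 fits without 1 mouse, with 5, 6 and 6 genes past the threshold for anti-RGMb minus isotype, isotype minus saline and anti-RGMb minus saline. With the mouse number as a replicate block the same counts (5, 6 and 6) were found, and all genes past the threshold numbered 3358, 6196 and 944. When the replicate set was no term of the fit, 0, 1 and 0 of the 8 genes and 0, 35 and 10 of all genes passed (73, 481 and 101 at unadjusted p under 0.05), and the median of all genes moved to 0.19, -0.20 and -0.01. Mertk then changed sign, to 0.02 for anti-RGMb minus isotype and -0.04 for isotype minus saline. Replicate set 1 alone gave 2 of the 8 genes for anti-RGMb minus isotype (Csf1r and Folr2) and 1020, 4295 and 550 of all genes, and replicate set 2 alone gave 4 of the 8 (all but Adgre1 of the 5) and 481 of all genes for anti-RGMb minus saline, where Cd14 did not pass (0.69, adjusted p = 0.102). All genes past the threshold for anti-RGMb minus saline numbered 2009 with only those groups' arrays and 2541 with array weights. Cx3cr1 for anti-RGMb minus saline, at 0.00, changed sign with log2(value + 50) (0.00), array weights (-0.04) and replicate set 2 alone (-0.11) and ranged from -0.10 to 0.05 without 1 mouse. It was -0.04 for anti-RGMb minus isotype in replicate set 2 alone, and Mertk was 0.01 for anti-RGMb minus saline in replicate set 1 alone. The cause of these changes was not tested, and fits of a single replicate set, without 1 mouse or of the compared groups only also hold fewer arrays. The number of mice limits what could be called, and the 95% interval of Itgam with the antibody runs from -0.77 to 0.21.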
